A study of Mus musculus with 6 samples.

Results

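Type I interferon-stimulated genes are the antiviral genes that a cell switches on after its receptor for interferon alpha and beta has been engaged. The set described here holds 34 such genes, which were chosen by symbol for their known role. They are the transcription factors Stat2, Irf9 and Irf7, sensors of foreign nucleic acid, translation blockers, the OAS enzymes, the Mx GTPases, the ISG15 system, the PARP9 and DTX3L group, membrane effectors and other effectors. Of the 34 genes, 32 were measured through a named probe, among 19752 genes named on the array in all. Mx1 and Mx2 were not matched by the naming rule and are not analysed here. All 32 probes were well above background on all 6 arrays, so no level is a bound.

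Interferon alpha and beta bind the receptor made of IFNAR1 and IFNAR2, whose kinases phosphorylate STAT2. STAT2 joins IRF9 in a complex that binds a short promoter element, the interferon-stimulated response element (ISRE), and the bound genes encode proteins that sense viral RNA, block translation, degrade RNA or trap virus at membranes. IRF7 is itself such a gene and is known to amplify interferon alpha production. Many of the same genes also answer, usually less strongly, to interferon gamma. In the lung, epithelium, macrophages and plasmacytoid dendritic cells are known sources of type I interferon during viral infection.

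Gene expression was measured in homogenised whole lung of mice with 6 single-colour Agilent arrays, 1 for each of 6 groups. The groups were WT, wild type C57BL/6 mice, and mice labelled FcRg KO (genotype FcRg-/-) and FceRIa KO (genotype FceRIa-/-), each challenged intranasally with either PBS or the mouse form of histamine-releasing factor (HRF). HRF is the extracellular form of the protein encoded by Tpt1 and can bind some IgE antibodies, FcRg is the signalling chain shared by several Fc receptors, and FceRIa is the IgE-binding chain of the high-affinity IgE receptor. The labels give no dose, no time after the challenge and no number of mice per array, and whole lung mixes many cell types, so fewer cells of a type and less RNA per cell cannot be told apart.

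Every level below is the processed signal divided by the 75th percentile of its array, on the log2 scale, so 0 marks that percentile. A level compares 1 probe between arrays and never 1 gene with another. A ratio is the difference of 2 such levels on the log2 scale, on which 1.5-fold is the smaller and 2-fold the larger size counted. With 1 array a group no ratio has a replicate check.

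The ISRE is the promoter element through which type I interferon switches many of these genes on, so promoters that hold its core are shown first. Both strands of the 250 bases before the start site were searched for GAAA, any 2 bases and GAAA again (TTTC, any 2 bases and TTTC on the opposite strand), a search chosen after the expression values were seen. Of the 24 members with a promoter in the RefSeq table of GRCm38.p6, 9 (37.5%) held at least 1 match, against 936 of 27025 genes (3.46%) in the whole table. Zbp1, Oas2, Usp18, Ifi27, Parp14, Dhx58, Parp9, Rtp4, Mx1 and Mx2 had no promoter in that table and were not searched. Matches can overlap one another and a match describes letters only. Shown in capitals are all bases that lie in a match, with 15 flanking bases where the searched stretch allows, for the 5 members with a match among the 14 that ranged most widely over the arrays.
Isg15, chr4:156200860-156200911, minus strand: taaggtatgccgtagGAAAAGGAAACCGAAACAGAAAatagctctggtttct
Ifit1, chr19:34640770-34640828, plus strand: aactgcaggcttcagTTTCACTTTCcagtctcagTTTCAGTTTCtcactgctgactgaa
Oas1a, chr5:120907526-120907560, minus strand: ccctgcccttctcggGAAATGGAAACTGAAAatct
Oas3, chr5:120777710-120777749, minus strand: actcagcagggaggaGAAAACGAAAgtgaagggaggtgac
Rsad2, chr12:26456548-26456587, minus strand: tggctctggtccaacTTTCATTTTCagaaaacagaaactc
Isg15 had 3 overlapping matches, Oas1a had 2 overlapping ones and Ifit1 had 2 that are apart, while Oas3 and Rsad2 had 1 each. The Isg15 window ran from 93 to 42 bases before the start site and the Oas1a window from 35 bases before it up to the base next to it. Bst2, Ifit3, Stat2 and Trim30a were the remaining members with a match. The average log2 difference between HRF and PBS arrays, described further on, had a median of 0.27 over the 9 members with a match and 0.10 over the 15 without. These sets of values overlapped, with 0.07 to 0.55 in the first and 0.02 to 0.27 in the second. The measured members without a promoter in the table are in neither set, and their differences ran from 0.01 (Usp18) to 0.87 (Zbp1).

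Between 67.5% and 79.6% of the 59305 spots per array were well above background, and no spot was saturated. The targeted genes did not bear out the genotype labels: Fcer1g lay between 3.93 and 4.61 on all 6 arrays, and Fcer1a stood at -0.90 and -1.16 on the arrays labelled FceRIa KO against -4.48 and -4.19 in WT. The sources used here do not say whether either probe targets a deleted stretch, and genotypes are named below as the arrays are labelled. The pair labelled FcRg KO stood apart in B cell genes. The median level of 10 B cell markers was -4.15 and -4.45 on its PBS and its HRF array, against 0.28 and 0.50 in WT and 0.10 and 0.33 on the arrays labelled FceRIa KO. Their summed level was 3.48 and 3.73 there against 5.31 to 5.54 on the other 4 arrays, and 3 of the 10 were not above background on either array of that pair. The defining marker Ms4a1 (CD20) was 1 of these 3 and stood at 2.60 and 2.78 in WT. In limma 5 of the 10 passed the threshold as lower than in WT, against 0.142% of all genes. Lung markers had a median level of 6.20 to 6.76 on all 6 arrays. The part of the B cell difference in the results for the pair labelled FcRg KO was not tested, and values without that pair are given.

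After HRF most of the interferon-stimulated genes stood a little higher than after PBS in WT and in the pair labelled FcRg KO, with the larger median in WT. In the WT pair 28 of the 32 members were above 0, with a median log2 ratio of 0.28 (1.21-fold), while 42.7% of all 17436 genes compared were above 0 and their median was -0.05. Members at least 1.5-fold higher numbered 5, against 5.45% of all genes, and none was 1.5-fold lower, against 9.1% of all genes. Among the genes well above background on all 6 arrays, as every member was, these shares were 5.15% and 5.18%. The 5 were Zbp1, Oas3, Oas2, Isg15 and Ifitm3. In the pair labelled FcRg KO the median was 0.15, 29 of 32 members were above 0 (50.2% of all genes) and 3 were at least 1.5-fold higher, namely Isg15, Rsad2 and Ifi44. The background there was 3.52% higher and 3.89% lower, or 2.28% and 2.84% among genes well above background on all arrays. In the pair labelled FceRIa KO the median was 0.04, 21 members were above 0 (47.2% of all genes) and Zbp1 alone was at least 1.5-fold higher, against 4.03% of all genes higher and 2.55% lower (2.91% and 1.49% among genes well above background on all arrays). Zbp1 and Oas3, both in WT, were the members at least 2-fold higher in any pair, where 2.48% of all genes were so in WT, 1.24% in the pair labelled FcRg KO and 1.96% in the pair labelled FceRIa KO.

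**Figure D1:**
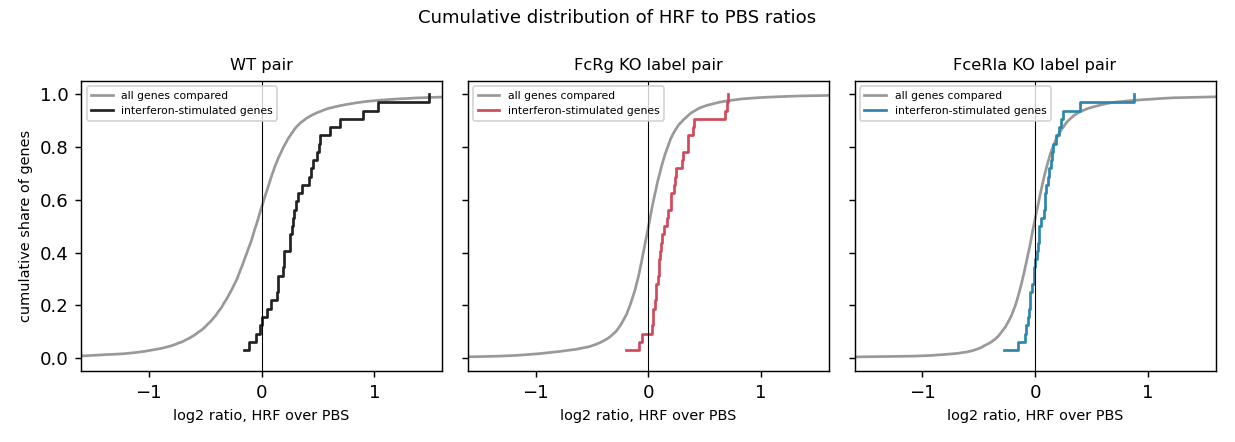
Cumulative share of genes (vertical axis) against the log2 HRF to PBS ratio (horizontal axis, drawn from -1.6 to 1.6), for WT, for the pair labelled FcRg KO and for the pair labelled FceRIa KO; grey curves are all genes compared and coloured steps the 32 interferon-stimulated genes. The steps lie to the right of the grey curve over most of their length in WT (medians 0.28 and -0.05), less so in the pair labelled FcRg KO (0.15 and 0.00), and near it in the pair labelled FceRIa KO (0.04 and -0.01).

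The size of these ratios compares with that of differences between arrays that received no HRF. Between the 3 PBS arrays the median over the members differed from WT by 0.26 on the array labelled FcRg KO and by 0.06 on the array labelled FceRIa KO. The median level of the 32 members was 1.72 and 1.87 in WT after PBS and after HRF, 1.88 and 2.06 under the FcRg KO label, and 1.69 and 1.70 under the FceRIa KO label. Its SD over the 3 PBS arrays was 0.10. The WT HRF array thus stood level with the PBS array labelled FcRg KO in this median.

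Of the transcription factors that act at these promoters, Stat2, a part of the ISRE-binding complex, stood at 2.49 and 2.78 in WT after PBS and after HRF, at 2.48 and 2.40 under the FcRg KO label, and at 2.33 and 2.31 under the FceRIa KO label. The WT HRF array was the highest of the 6, and both arrays labelled FceRIa KO were the lowest. Irf9, the DNA-binding partner of the complex, stood at 3.09 and 3.24 in WT, at 3.12 and 3.15 under the FcRg KO label, and at 3.06 and 3.07 under the FceRIa KO label. Its range over the arrays was 0.17 on the log2 scale, the smallest of the 32 members. Irf7, the amplifier of interferon alpha production, stood at -0.56 and -0.20 in WT, at -0.49 and -0.09 under the FcRg KO label, and at -0.69 and -0.76 under the FceRIa KO label. Irf7 was 1.29-fold and 1.32-fold higher after HRF in the first pair and the second, and its HRF array was the lowest of the 6 in the third.

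Among the nucleic acid sensors, Zbp1 had the widest range of all members (3.54-fold). ZBP1 binds left-handed nucleic acid and is known for starting inflammatory cell death. Its level was 0.06 and 1.54 in WT after PBS and after HRF, 0.49 and 0.74 under the FcRg KO label, and -0.28 and 0.59 under the FceRIa KO label. All 3 HRF arrays lay above all 3 PBS arrays, and the ratios were 2.79-fold, 1.19-fold and 1.84-fold. A second, dimmer Zbp1 probe gave log2 ratios of 1.12, 0.28 and 0.50 in the same order. Of the RNA helicases that signal through MAVS, Ddx58 (RIG-I) ranged over 0.19 and Ifih1 (MDA5) over 0.20 on the log2 scale. A dimmer Ddx58 probe ran from -1.86 to -1.24 and had log2 ratios of 0.06, 0.35 and 0.24, so the Ddx58 probes disagree in the pair labelled FcRg KO, where the brighter one gave -0.05. Dhx58 (LGP2), a regulator of these helicases, reached its highest level on the HRF array labelled FcRg KO, at -0.34 against -0.64 on the PBS array of that label.

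Of the proteins that block translation of viral RNA, Ifit1, which binds RNA lacking the host cap methylation, stood at -0.09 and 0.10 in WT after PBS and after HRF. It stood at 0.24 and 0.65 under the FcRg KO label and at 0.00 and 0.40 under the FceRIa KO label. Ifit1 was therefore higher after HRF in each pair, and the pair with the smallest ratio was WT (1.14-fold, against 1.33-fold and 1.32-fold). Its neighbours Ifit2 and Ifit3 had ranges of 0.31 and 0.24. Eif2ak2 (PKR), the kinase that halts translation on double-stranded RNA, had its largest ratio in WT (1.37-fold), and all 3 of its HRF arrays lay above all 3 PBS arrays.

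The OAS family makes 2-5A, the second messenger of the RNase L pathway, and 4 of its 5 members were among the 14 members with the widest range. Oas1a stood at 2.64 and 3.13 in WT, at 3.20 and 3.56 under the FcRg KO label, and at 2.55 and 2.70 under the FceRIa KO label. Oas2 stood at 0.92 and 1.82 in WT, at 1.73 and 2.04 under the FcRg KO label, and at 1.43 and 1.45 under the FceRIa KO label. Oas3, the form that answers to long double-stranded RNA, stood at -3.76 and -2.73 in WT, at -2.67 and -2.50 under the FcRg KO label, and at -2.83 and -3.11 under the FceRIa KO label. For Oas2 and Oas3 the WT PBS array was the lowest of the 6, at -0.51 and -0.65 relative to the next lowest, and the WT ratios of 1.86-fold and 2.05-fold are taken against that array. Oasl1, an OAS-like protein without enzyme activity, stood at 0.40 and 0.71 in WT, at 0.94 and 1.18 under the FcRg KO label, and at 0.76 and 0.94 under the FceRIa KO label. Oasl1 was also lowest on the WT PBS array, and its 3 ratios lay close together at 1.24-fold, 1.18-fold and 1.14-fold. Oasl2 stayed within 0.37 on the log2 scale.

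**Figure D2:**
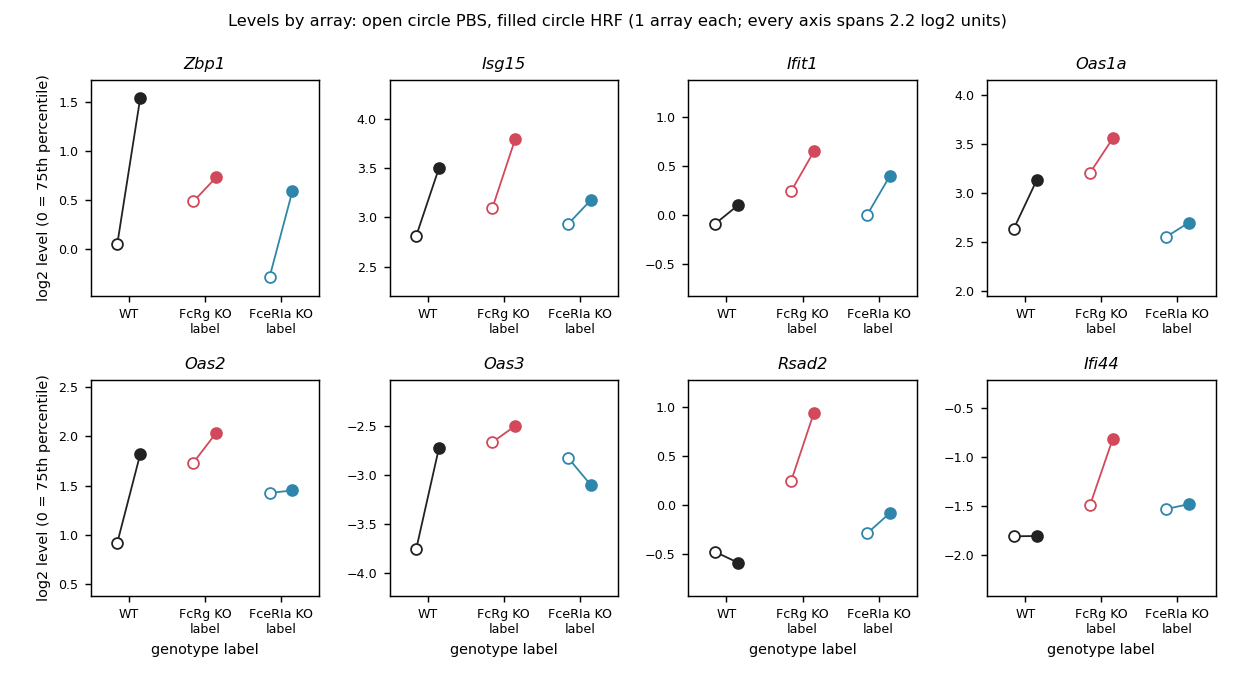
Levels of 8 interferon-stimulated genes on each array (vertical axis, log2 signal relative to the array's 75th percentile, each panel spanning the same 2.2 log2 units) by genotype label (horizontal axis); open circles are PBS arrays, filled circles HRF arrays, 1 array each, with a line joining the pair. Zbp1, Isg15, Ifit1 and Oas1a slope upward in all 3 pairs, Oas2 and Oas3 have a low WT PBS point, and Rsad2 and Ifi44 are highest on the HRF array labelled FcRg KO.

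The ISG15 system attaches a ubiquitin-like protein to targets and removes it again. Isg15, the modifier itself, stood at 2.81 and 3.50 in WT after PBS and after HRF, at 3.09 and 3.80 under the FcRg KO label, and at 2.94 and 3.18 under the FceRIa KO label. All HRF arrays were above all PBS arrays, with ratios of 1.62-fold, 1.63-fold and 1.19-fold. A second Isg15 probe gave log2 ratios of 0.61, 0.74 and 0.25, so both probes had the smallest ratio in the pair labelled FceRIa KO. Usp18, the protease that removes ISG15 and restrains the type I receptor, stood at 1.81 and 1.89 in WT, at 2.06 and 2.16 under the FcRg KO label, and at 1.63 and 1.48 under the FceRIa KO label. For Usp18 the levels of the 3 genotype labels did not overlap, whereas those of PBS and HRF arrays did. Herc6, the main mouse ligase for ISG15, was higher on each HRF array than on any PBS array, with log2 ratios of 0.33, 0.20 and 0.14.

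The ADP-ribosyltransferase Parp14, its relative Parp9 and the ubiquitin ligase Dtx3l, which forms a complex with PARP9, are neighbours within 200 kb on chromosome 16. Parp14 stood at 2.99 and 3.51 in WT after PBS and after HRF, at 2.97 and 3.02 under the FcRg KO label, and at 2.91, and 0.09 higher after HRF, under the FceRIa KO label. The WT HRF array was the highest of the 6 for each of the 3 genes, and for Parp14 the other 5 arrays lay at 3.02 or below. WT ratios were 1.43-fold for Parp14, 1.34-fold for Parp9 and 1.19-fold for Dtx3l. A second, dimmer Dtx3l probe was higher in WT than on the arrays labelled FcRg KO, by 1.57-fold after PBS and 1.83-fold after HRF, against 1.02-fold and 1.16-fold for the brighter probe.

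Among the membrane effectors, Ifitm3, which hinders the entry of enveloped viruses, stood at 4.77 and 5.37 in WT, at 5.22 and 5.33 under the FcRg KO label, and at 5.12 and 5.22 under the FceRIa KO label. Its WT PBS array was the lowest and the other 5 arrays spanned 5.12 to 5.37. Rsad2 (viperin), an enzyme that makes a chain-terminating nucleotide, stood at -0.47 and -0.58 in WT, at 0.25 and 0.95 under the FcRg KO label, and at -0.28 and -0.08 under the FceRIa KO label. Rsad2 was not higher after HRF in WT: its WT HRF array was the lowest of the 6 and both arrays labelled FcRg KO were the highest. Bst2 (tetherin), which holds budding virus at the cell surface, was likewise higher on both arrays labelled FcRg KO, at 4.20 and 4.34, than on the other 4, at 3.76 to 4.04. Rtp4 had a WT ratio of 1.43-fold and ratios of 1.07-fold and 0.97-fold in the pairs labelled FcRg KO and FceRIa KO.

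Of the other effectors, Ifi44 stood at -1.81 on both WT arrays, at -1.50 and -0.82 under the FcRg KO label, and at -1.53 and -1.48 under the FceRIa KO label. The HRF array labelled FcRg KO stood alone above the other 5. Ifi27 stood at 5.26 and 5.51 in WT, at 5.93 and 5.73 under the FcRg KO label, and at 5.46 and 5.49 under the FceRIa KO label, and was thus lower after HRF in the pair labelled FcRg KO. Cmpk2, a nucleotide kinase whose gene neighbours Rsad2 within 200 kb on chromosome 12, did not share the Rsad2 pattern with its brighter probe, which ranged over 0.56 and was highest on the HRF array labelled FceRIa KO. Its second probe stood at -0.34 and -0.64 in WT, at -2.67 and -2.47 under the FcRg KO label, and at -0.80 and -0.79 under the FceRIa KO label. By that probe WT was 5.02-fold and 3.55-fold above the pair labelled FcRg KO after PBS and HRF, so the probes of Cmpk2 disagree and no direction is given for the gene. Ifi35, Xaf1 and the TRIM protein Trim30a had ranges of 0.20, 0.47 and 0.53, and a dimmer Xaf1 probe gave ratios below 0 in all 3 pairs.

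**Figure D3:**
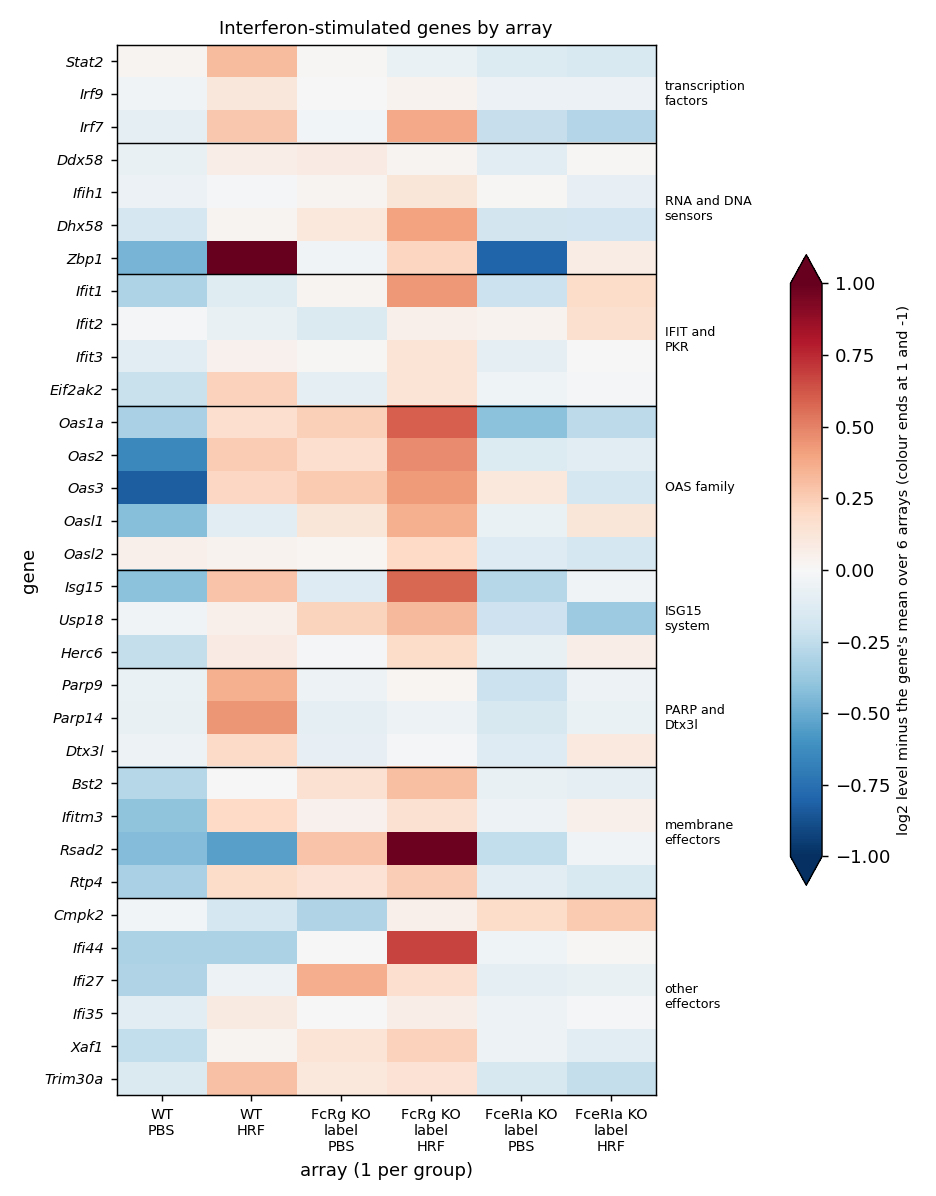
Each cell shows the log2 level of 1 gene (rows, grouped by role) on 1 array (columns, 1 array per group) minus that gene's mean over the 6 arrays, with red above and blue below the mean and colour ending at 1 and -1. The WT PBS column is mostly blue and is the lowest for 15 of the 32 genes, and the HRF column labelled FcRg KO is mostly red and is the highest for 18.

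Counts over the arrays showed which arrays set the pattern. Higher levels after HRF in all 3 pairs were found for 16 of 32 members, against 16.5% of all genes, and lower levels in all 3 for none, against 20.6%. All 3 HRF arrays lay above all 3 PBS arrays for 7 members, against 5.95% of all genes. The 7 were Zbp1, Isg15, Eif2ak2, Herc6, Parp14, Dtx3l and Ifitm3. The WT PBS array was the lowest of the 6 for 15 members (16.6% of all genes) and the HRF array labelled FcRg KO the highest for 18 (15.4% of all genes). These counts were chosen after the data were seen.

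The labels also differed without regard to HRF. On the PBS arrays the one labelled FcRg KO exceeded WT for 26 of 32 members, against 48.6% of all genes. At least 1.5-fold higher were 4 members (2.72% of all genes) and none was 1.5-fold lower (10.7% of all genes). Among the 15679 genes well above background on all 6 arrays, as every member was, 402 were higher and 751 lower. The 4 members were Oas3 (2.13-fold), Oas2 (1.76-fold), Rsad2 (1.65-fold) and Ifi27 (1.58-fold). On the PBS array labelled FceRIa KO only Oas3 was at least 1.5-fold above WT (1.46% of all genes, with 11.4% lower). Of the same 15679 genes 165 were higher and 703 lower. Both comparisons share the WT PBS array with the WT response to HRF, so the Oas2 and Oas3 values are not separate observations. Set against each other, the PBS array labelled FceRIa KO was above that labelled FcRg KO for 3 of 32 members (43.7% of all genes). It was 1.5-fold lower for Zbp1 and Oas1a. Of all genes 3.02% were higher and 5.43% lower by that size, and of the 15679 genes 322 and 574. On the HRF arrays the same comparison gave 9 members 1.5-fold lower, led by Rsad2 with a log2 ratio of -1.02 and Oas1a with -0.86. So were 5.6% of all genes and 559 of the 15679. No member was 1.5-fold higher, against 4.39% of all genes and 527 of the 15679. The HRF array labelled FceRIa KO was above that of WT for 6 members (47.4% of all genes), with Zbp1 alone 1.5-fold lower. Of all genes 3.58% were higher and 9.16% lower by that size, and of the 15679 genes 459 and 834. The HRF array labelled FcRg KO was above that of WT for 21 members, against 53.7% of all genes. Rsad2 was 2.88-fold and Ifi44 1.99-fold higher on the HRF array labelled FcRg KO than on the WT HRF array, while Zbp1 was lower, with a log2 ratio of -0.80. At least 1.5-fold higher there were 4.58% of all genes and at least 1.5-fold lower 8.64%, or 634 and 903 of the 15679.

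**Figure D4:**
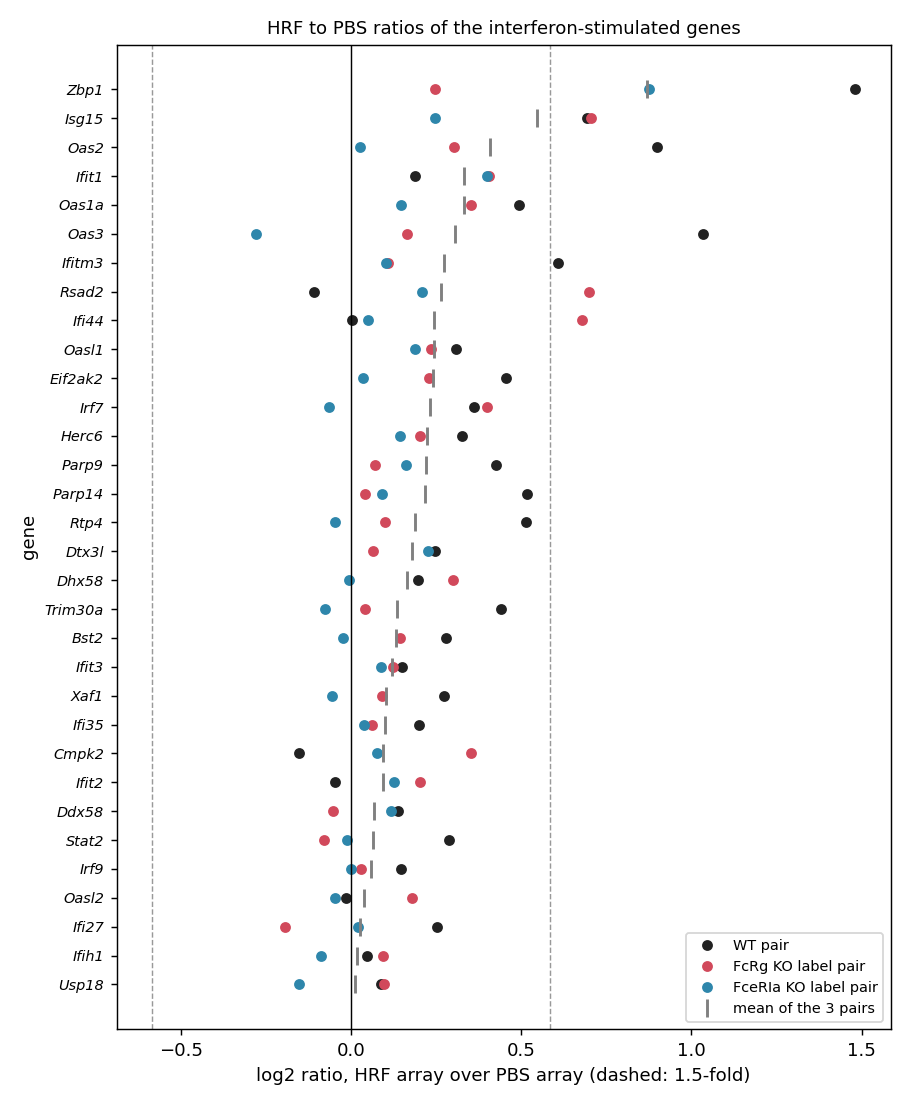
Log2 HRF to PBS ratio (horizontal axis) for each of the 32 interferon-stimulated genes (vertical axis), with 1 point per pair of arrays, a grey tick at the mean of the 3 pairs and dashed lines at 1.5-fold either way. All 32 ticks lie above 0 (30 would with normexp and quantile normalization), from 0.01 for Usp18 to 0.87 for Zbp1, while the points of Oas3 run from -0.28 to 1.03.

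The average HRF effect was tested over all 6 arrays with limma, with genotype label and challenge as additive terms. The effect was above 0 for 32 of 32 members (30 with normexp and quantile normalization, 31 with the mean of all probes), against 45.2% of all 17607 genes, with a median of 0.18 against -0.02. No member passed an adjusted p of 0.05, and no gene on the array did. At an unadjusted p under 0.05, 6 members were higher and none was lower, against 3.63% of all genes higher and 5.17% lower. These were Zbp1 (0.87, SE 0.27), Isg15 (0.55, SE 0.13), Ifit1 (0.33, SE 0.08), Oas1a (0.33, SE 0.10), Oasl1 (0.24, SE 0.07) and Herc6 (0.22, SE 0.08), each with an adjusted p of 0.557 in limma. The fit has 2 residual degrees of freedom, and its error is the disagreement between the 3 pairs and not the spread between mice. Without the WT pair 27 of 32 effects were above 0, without the pair labelled FcRg KO 28, and without the pair labelled FceRIa KO 32.

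Differences between genotype labels came from the same fit. The arrays labelled FcRg KO were above WT for 25 of 32 members (50.4% of all genes), with a median of 0.14. None passed, where 1 gene of all was called higher and 25 lower (0.00568% and 0.142%). At an unadjusted p under 0.05, 7 members were higher, against 5.71% of all genes, and none lower, against 7.71%. Of the 15679 genes well above background on all 6 arrays 984 were higher and 802 lower at that threshold. The 7 members were led by Rsad2 (1.12, SE 0.23, adjusted p 0.308 in limma), Ifi44 (0.65, SE 0.21) and Oasl1 (0.51, SE 0.08, adjusted p 0.268), with Oas1a, Ifit1, Ifi27 and Bst2 between 0.50 and 0.37. The arrays labelled FceRIa KO were above those labelled FcRg KO for 3 of 32 members (41.4% of all genes), with a median of -0.25. None of these passed, where 0.131% of all genes were called higher and 0.017% lower. At an unadjusted p under 0.05, 4 members were lower, namely Rsad2, Oas1a, Usp18 and Dhx58, and none higher. Of all genes 6.38% were lower and 2.95% higher, and of the 15679 genes 798 and 448. Against WT the arrays labelled FceRIa KO had a median of -0.03, which became 0.12 when arrays were scaled on their median and 0.03 with normexp and quantile normalization. At an unadjusted p under 0.05, 1 member, Oasl1, was higher (3.45% of all genes) and none lower (9.41%). Of the 15679 genes 591 were higher and 854 lower at that threshold. No member and no gene of all passed the adjusted threshold there.

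Whether a pair responded differently from the others was tested with an interaction term in limma, which leaves 1 residual degree of freedom. The WT response exceeded that of the other pairs for 26 of 32 members (45.5% of all genes), with a median of 0.18 against -0.03 over all genes, and no member passed. At an unadjusted p under 0.05, 3 members were higher, against 3.2% of all genes, and none lower, against 5.47%. Of the 15679 genes well above background on all 6 arrays 490 were higher and 581 lower. The 3 members were Oas3 (1.09, SE 0.27), Oas2 (0.73, SE 0.20) and Ifitm3 (0.50, SE 0.13), each with an adjusted p of 0.569 in limma. These are 3 of the genes whose WT PBS level was the lowest of the 6. For the pair labelled FcRg KO 14 of 32 were above 0 (52.9% of all genes), and Ifi44 (0.65, adjusted p 0.823 in limma) was alone past an unadjusted p of 0.05 (3.28% of all genes higher). For the pair labelled FceRIa KO 5 of 32 were above 0 (50.5% of all genes) and none passed either threshold. No member passed the test for a difference in response between the labels, and no gene of all 17607 passed it for any of the 3 pairs.

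The rest of the pathway was followed with lists of ligands, receptors, inducers and restraints, where again limma called no gene for HRF. For counts in these and later lists, 5.45% of all genes were at least 1.5-fold higher in WT and 9.1% lower. These shares were 3.52% and 3.89% in the pair labelled FcRg KO, and 4.03% and 2.55% in the pair labelled FceRIa KO. The 12 ligands above background had a median log2 ratio of -0.40 in WT, with 1 at least 1.5-fold higher and 2 lower. The higher one was Ifng, at -2.62 and -0.04 on the PBS and HRF arrays, with log2 ratios of 0.08 and -0.16 in the pairs labelled FcRg KO and FceRIa KO. No array had Ifnb1 well above background. Ifna5 stood at -3.66 and -4.65 in WT, Ifna11 was 1.58-fold higher in the pair labelled FcRg KO, and Ifna7 was lower after HRF in each pair, with log2 ratios of -0.59 and -0.77 in the first 2 pairs and at least 1.12-fold lower in the pair labelled FceRIa KO, whose HRF array was not well above background. The receptor chain Ifnar1 lay between 2.04 and 2.25 on all arrays. Ifnar2 had a WT ratio of 0.46, and of 10 receptors and kinases Jak2 (0.60) and Ifngr2 (0.59) were at least 1.5-fold higher in WT. In the induction pathway 5 of 15 genes were 1.5-fold higher in WT and none in the other pairs, led by the adaptor Sting1 (1.61), the adaptor Myd88 (1.14), the factor Irf5 (0.97) and the DNA sensor Cgas (0.83). Their log2 ratios under the FcRg KO label were 0.00, 0.04, 0.19 and 0.30. Under the FceRIa KO label they were 0.42, 0.49, 0.56 and -0.06.

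Several restraints of interferon signalling were high on the WT HRF array. Socs1, the inhibitor of JAK kinases, stood at 0.46 and 2.68 in WT after PBS and after HRF, at 0.84 and 0.60 under the FcRg KO label, and at 0.36 and 0.54 under the FceRIa KO label. The WT HRF array stood alone above the other 5. Socs3 had log2 ratios of 2.12, -0.47 and 0.63 in the 3 pairs, and the phosphatase Ptpn2 1.01, 0.04 and 0.31. In WT 4 of the 10 restraints were at least 1.5-fold higher, with a list median of 0.48, against 5 of 32 and 0.28 for the interferon-stimulated genes. This difference between lists was not tested.

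A further 51 interferon-stimulated genes outside the set of 34 had WT, FcRg KO-labelled and FceRIa KO-labelled medians of 0.14, 0.07 and 0.08. In the same order 7, 0 and 2 of them were at least 1.5-fold higher, against 5.45%, 3.52% and 4.03% of all genes. The largest WT ratios among the 51 were those of Slfn4 (1.92), Ifitm6 (1.45), Gm4951 (1.28) and Slfn1 (1.24). Slfn4 stood at -2.63 on the WT PBS array and between -1.23 and -0.71 on the other 5, and Slfn1 and Ifitm6 were also lowest on the WT PBS array. Gm4951 instead had its WT HRF array highest, at 2.23 against 1.11 or less elsewhere.

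Chemokines and GTPases better known as interferon gamma targets had their larger ratios in WT and in the pair labelled FceRIa KO. Of 24 such genes 14 were at least 1.5-fold higher in WT, none in the pair labelled FcRg KO and 9 in the pair labelled FceRIa KO, with median log2 ratios of 0.94, 0.09 and 0.31. Cxcl10, a T cell attractant that answers to both interferon types, stood at 1.74 and 4.92 in WT, at 0.39 and 0.10 under the FcRg KO label, and at -1.19 and 2.44 under the FceRIa KO label. The ratio under the FceRIa KO label is taken against a PBS array that was the lowest of the 6. Cxcl9 had log2 ratios of 2.33, -1.08 and 2.94, the last also against the lowest array (-4.08), and its HRF array there, at -1.15, was below WT PBS, at -0.52. Iigp1 had log2 ratios of 1.48, 0.26 and 0.60, and Gbp5 1.37, 0.21 and 0.81. Of 8 genes of the Ifi200 family, DNA-binding proteins of the innate response, 4 were at least 1.5-fold higher in WT, led by Ifi211 (2.29) and Ifi204 (1.5).

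Marker lists of other cells are given beside these ratios. Neutrophil markers had median log2 ratios of 0.80, 0.14 and 0.16 in the 3 pairs, with 6 of 9 at least 1.5-fold higher and 1 lower in WT. Their summed level was 7.51 and 7.76 in WT, 7.66 and 7.90 under the FcRg KO label, and 8.02 and 8.21 under the FceRIa KO label. All 9 were well above background on all 6 arrays. Monocyte markers had median log2 ratios of 0.28, 0.11 and 0.00 in the same order. Alveolar macrophage markers had 0.29, 0.13 and 0.01, T cell markers 0.34, -0.17 and 0.24, and NK cell markers 0.15, 0.34 and -0.44. Of 10 plasmacytoid dendritic cell markers 3 were at least 1.5-fold higher in WT (Klk1, Ccr9 and Bcl11a) and none in the other pairs, with median log2 ratios of 0.08, 0.15 and -0.01. Their summed level lay between 6.78 and 7.12 on all arrays, and the defining marker Siglech between 5.66 and 6.44. Their median level was instead -1.45 on the HRF array labelled FcRg KO and lower still on the PBS array of that label. It lay between 2.09 and 2.41 on the WT arrays and those labelled FceRIa KO. Of the 10, Ly6d and Spib passed limma's threshold as lower on the arrays labelled FcRg KO than in WT. So did 5 of the 10 B cell markers, and 0.142% of all genes. Whether the Ly6d and Spib signal came from plasmacytoid dendritic cells or from B cells was not tested. In limma no gene of these lists passed for HRF. The part of these cells in the ratios of the interferon-stimulated genes was not tested.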

How the data were processed

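Total RNA of whole lung was labelled with Cy3, per the labels. Per the file headers, intensities came from Agilent Feature Extraction 10.7.3.1 with probes annotated on mm9, and the deposited processed signal is an intensity already background-subtracted within each array. The authors' deposited value table holds log2 values whose exact centring stays unknown. Medians of its columns were 0.10 (WT PBS) and 0 (all others), and its HRF to PBS differences correlated with those of the scanner files across genes with r of 0.996 to 0.997. All 6 arrays lie on 1 slide and were scanned in 1 run, so no batch could be compared.

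The value used was the log2 ratio of the processed signal to its array's 75th percentile. Control spots and outlier spots were left out, spots of a probe were averaged, and of 55681 probes 26056 were named through their RefSeq accession with the RefSeq table of GRCm38.p6. The brightest probe stood for a gene, and 9 members had several. Probe sequences were not used here, so binding to near-identical genes such as other Oas1, Ifit3 or Ifna copies was not tested.

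Genes well above background on at least 1 array were fitted with limma 3.58.1 in R 4.3.3 (Benjamini-Hochberg over all of them, checked on simulated data). P-values then measure only the spread between these arrays, which come from different groups. Python 3.11.15 with numpy 2.4.6, pandas 2.3.3 and matplotlib 3.10.9 did the rest. All 6 values are given for the 14 members with the widest range and for Stat2, Irf9 and Irf7, and others by range, count or a single value at the end of a role group. From other lists up to 4 genes with the largest ratio in any pair are named, with the receptor, ligand and targeted genes. 1 of the pathway genes that the rule names by symbol is not reported here. Members, lists and rules were chosen with earlier results of these data known. Alternatives were scaling on the array median, quantile normalization after normexp (offset 50), the deposited table, no filter or a stricter one, the mean of all probes, 2-fold in place of 1.5-fold, and leaving out a pair.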

Additional observations from a re-analysis of the deposited data

How the results depend on the processing

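Scaling on the array median shifted the WT ratio of all genes from a median of -0.05 to 0.17. The members' WT median then read 0.50 and 11 members were at least 1.5-fold higher. Both scalings subtract 1 constant per array, so the members' median relative to all genes, 0.33, could not differ between them. With array median scaling the PBS array labelled FcRg KO exceeded WT by a median of 0.53, with 13 members 1.5-fold higher. The PBS array labelled FceRIa KO exceeded WT by 0.29, with 4 such members. In limma the medians became 0.28 for FcRg KO labels against WT, 0.12 (turned from -0.03) for FceRIa KO labels against WT, 0.39 for the WT response term and -0.19 for that of the pair labelled FcRg KO. Normexp with quantile normalization left 3 members 1.5-fold higher in WT, and 1 lower between the PBS arrays labelled FceRIa KO and FcRg KO. The mean of all probes gave 1 member higher in that comparison and 1 lower between the PBS arrays labelled FcRg KO and WT. At 2-fold, 2 members were higher in WT, 0 in the pair labelled FcRg KO and 0 in the pair labelled FceRIa KO. A further 169 medians and counts, among them limma counts that stayed at 0, moved by under 0.10 on the log2 scale (the SD of the members' median over the 3 PBS arrays) or stayed within 1.5-fold. In 1 of these the sign turned: FceRIa KO labels against WT read 0.03 with normexp and quantile normalization. No member passed limma's threshold under any alternative run. The average effect of HRF was above 0 for 30 members with normexp and quantile normalization and for 31 with the mean of all probes. Arrays of a genotype label are paired in every limma fit by the genotype term, and no fit by replicate number could be made because the labels give none. Under array median scaling all genes of an array shift alike, and why the arrays differ in this was not tested. The cause of the other shifts was not tested. With 1 array a group, the number of arrays limits the precision.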
